A study of Mus musculus with 12 samples.

Results

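The cluster that runs from miR-379 to miR-410 is a group of miRNA genes on mouse chromosome 12, within the imprinted Dlk1-Dio3 domain. To describe its expression in frontal cortex (FCx) and hippocampus (HP), all names in the deposited miRNA count files that carry one of 34 miRNA numbers of the cluster, without a star, were collected. This gave 40 of the 469 names in the files, and 33 of the 34 numbers were present, the absent one being 453. The tissue came from male C57BL/6J mice, an unmodified inbred strain, at the age of 8 weeks, and no treatment is named for any group. Tissue of 3 mice was combined into 1 pool per region before RNA was extracted, and the RNA of each pool was made into 3 libraries with different indexes. An index is a 6 nt tag with which the 5′ adaptor ends (UUAGGC for index 3, CAGAUC for index 7 and GGCUAC for index 11). Each library was sequenced alone in a lane and again pooled with others, and its runs were added up, which leaves n = 3 in each region. These libraries are technical replicates. Their p-values rest on the spread between libraries of 2 RNA pools, with variance partly shared over miRNAs, and hold no difference between animals. In bulk tissue fewer cells of a type cannot be told apart from less RNA per cell.

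Members of the cluster lie on the plus strand and are thought to be cut from one long non-coding transcript that is made from the maternal chromosome. A hairpin in the transcript is cut into a short duplex, and either arm (5p or 3p) can be loaded into an Argonaute protein, where the bases from position 2 to 8, the seed, pair with target mRNAs. The cluster is found in placental mammals, is expressed in brain and placenta, and is induced by neuronal activity. miR-134, its best known member, acts in dendrites and limits the size of spines.

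In genome build NCBIM37 the 34 hairpins of these numbers that have a RefSeq sequence span chr12:110947270-110982005, which is 34.7 kb on the plus strand. The first 25, Mir379 to Mir485, lie outside other annotated genes, and the last 9, Mir453 to Mir410, lie in the non-coding gene Mirg, 5 of them in introns. Of the genome alignments in the interval, 166435 were on the plus strand and 9 on the minus strand, and 165872 of the former were inside a hairpin. The sequences below are RefSeq mature miRNAs (table of build GRCm38.p6), written 5′ to 3′ with the seed in capitals, and their positions were found by exact match to NCBIM37. The first set holds arms that are among the highest of the cluster or that were called between regions within indexes, and miR-376a-3p, which differs from miR-376b-3p by 3 of 21 bases. miR-487b-3p belongs to it and is named only, and miR-411-5p, miR-382-3p and miR-377-3p stand in the third set.
miR-369-5p: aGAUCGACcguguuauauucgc
miR-369-3p: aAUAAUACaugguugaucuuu
miR-541-5p: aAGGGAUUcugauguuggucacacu
miR-382-5p: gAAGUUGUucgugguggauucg
miR-379-5p: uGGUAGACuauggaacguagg
miR-376a-3p: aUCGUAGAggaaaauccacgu
miR-376b-3p: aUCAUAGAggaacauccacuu
miR-376b-5p: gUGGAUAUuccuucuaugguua

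The second set holds the larger of 3 groups of arms with a shared start, each arm with at least 100 genome reads. Its 3 arms begin with the same 6 bases and had the same order over the indexes, while the arms of the other groups differed in theirs. Reads of miR-379-3p and miR-411-3p, which differ by 2 of 22 bases, may be exchanged.
miR-379-3p: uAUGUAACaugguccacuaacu
miR-411-3p: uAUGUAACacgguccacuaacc
miR-380-3p: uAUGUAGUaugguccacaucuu

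The third set holds the 7 arms for which the commonest 5′ end in the genome alignments of all 6 libraries together was not the annotated one. The line after each annotated sequence gives the same arm from its commonest start, so that the seed moves with it.
miR-411-5p: uAGUAGACcguauagcguacg
miR-411-5p, commonest start: aUAGUAGAccguauagcguacg
miR-382-3p: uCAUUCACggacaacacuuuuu
miR-382-3p, commonest start: aAUCAUUCacggacaacacuuu
miR-377-3p: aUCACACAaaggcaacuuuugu
miR-377-3p, commonest start: uGAAUCACacaaaggcaacuuu
miR-323-3p: cACAUUACacggucgaccucu
miR-323-3p, commonest start: gCACAUUAcacggucgaccucu
miR-496a-3p: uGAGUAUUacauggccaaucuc
miR-496a-3p, commonest start: aGUAUUACauggccaaucuccu
miR-409-3p: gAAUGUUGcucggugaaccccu
miR-409-3p, commonest start: aAUGUUGCucggugaaccccuu
miR-485-3p: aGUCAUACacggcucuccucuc
miR-485-3p, commonest start: cAUACACGgcucuccucucuuc

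Counts on miRNAs ranged from 391410 to 1461732 per library in FCx and from 3206221 to 4956117 in HP, so FCx values rest on fewer reads. Levels are given in CPM, the counts of a miRNA per 1000000 miRNA counts of its library, and were not divided by length, because the mature arms are all between 19 and 25 nt long. A count of 0, taken to allow 3 counts, allowed up to 2.05 to 7.66 CPM in FCx and 0.605 to 0.936 CPM in HP, and intervals and limits cover counting error only. Summed levels of the brain miRNAs miR-124, miR-9 and miR-128 lay between 241123 and 271724 CPM in FCx and between 103071 and 167715 CPM in HP, and the labels' brain tissue thus held its defining miRNAs. A list of 8 miRNAs of epithelium and olfactory tissue, all 8 listed in both regions, had a sum between 1478 and 5702 CPM in FCx and between 24.7 and 134 CPM in HP. Both this list and that of the brain miRNAs move with the region, without overlap between FCx and HP libraries. Their part in any difference between FCx and HP was not tested.

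The 40 members together held about 1 in 100 miRNA counts, and this share did not separate the regions. In FCx it was 1.21%, 0.828% and 0.919% with indexes 3, 7 and 11, with a mean of 0.986% ± 0.200 (SD, n = 3). In HP it was 1.10%, 1.23% and 0.856%, with a mean of 1.06% ± 0.190. The Wilson intervals of single libraries were narrow, for example from 1.18% to 1.24% with index 3 in FCx, so that the spread between indexes is far wider than counting error. The runs of a library were close to each other except with index 3 in HP, where the individual lane gave 0.939% and the pooled lane 1.39%. The 19 other names of the Dlk1-Dio3 domain, among them miR-127 and miR-434, had a sum of 16414 ± 5229 CPM in FCx and of 15105 ± 3804 CPM in HP. The members summed to 9856 ± 1998 CPM in FCx and to 10628 ± 1897 CPM in HP.

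Although the members are thought to share a transcript, their levels were far from equal. Among the 31 members read in all 6 libraries, the highest mean level was 366-fold above the lowest. A single member, miR-496, ranged 84.2-fold between indexes in FCx, where its lowest level rests on 7 counts. A gap in CPM between members thus need not be one in RNA amount. This was not tested. The 5 highest members held 53.3% of the summed mean CPM, and the 18 with a mean of at least 100 CPM held 94.6%. Another 9 members had a mean under 10 CPM. A read was found for 37 members in FCx and 39 in HP. Distance along the cluster did not order the levels: Mir411 near the proximal end, Mir382 in the distal part and Mir369 at the distal end were all high, while Mir758, Mir494, Mir679 and Mir1193 lay between abundant hairpins and gave at most 42 reads each.

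**Figure D1:**
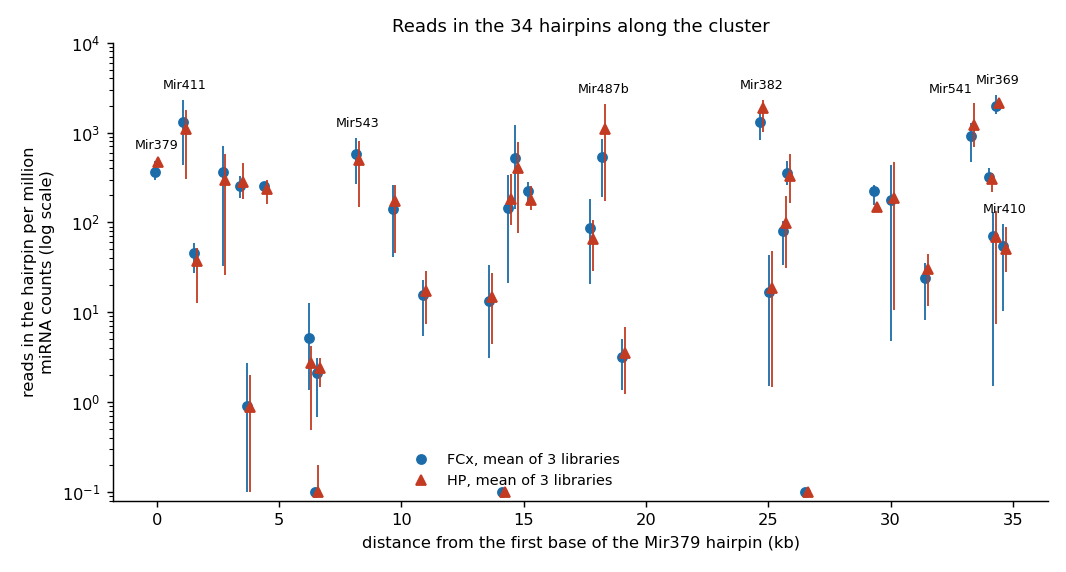
Reads inside each of the 34 hairpins per 1000000 miRNA counts (log scale) against the distance from the first base of Mir379 (kb). Points are means of 3 libraries, lines run from the lowest to the highest library, and values under 0.1 are drawn at 0.1. High hairpins lie in the proximal, middle and distal parts, for example Mir411, Mir487b and Mir369, with low ones between them, for example Mir758 and Mir539.

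Of the members with a known or proposed role at synapses or in dendrites, miR-541, miR-376a, miR-379, miR-496, miR-495, miR-376b and miR-485 reached a mean of 100 CPM. miR-541 had 483, 1318 and 1042 CPM in FCx (indexes 3, 7 and 11) and 696, 2150 and 896 CPM in HP. Its level was lowest with index 3 and highest with index 7 in both regions. miR-376a, from a family whose transcripts are known to be edited by adenosine deaminases, had 1850, 313 and 195 CPM in FCx and 1123, 507 and 82.6 CPM in HP. Here index 3 gave the highest level in both regions. miR-379, the first hairpin of the cluster, had 294, 497 and 181 CPM in FCx and 440, 515 and 325 CPM in HP. The libraries of the regions overlapped, but with each index HP was the higher.

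miR-496 had 99.6, 4.79 and 403 CPM in FCx and 72.7, 9.89 and 460 CPM in HP. Index 11 gave the highest and index 7 the lowest level in both regions. miR-495, for which the neurotrophin Bdnf is a known target, had 261, 125 and 41.4 CPM in FCx and 259, 218 and 44.7 CPM in HP. miR-376b, a close relative of miR-376a, had 353, 13.0 and 73.6 CPM in FCx and 363, 41.8 and 92.3 CPM in HP. Both were highest with index 3. miR-485, known from homeostatic plasticity of synapses, had 187, 188 and 58.2 CPM in FCx and 140, 237 and 97.4 CPM in HP.

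Other known synaptic members were scarce by counts. miR-134 had 5.11, 50.6 and 0 CPM in FCx and 6.24, 52.1 and 1.48 CPM in HP, so that its level was highest with index 7 in both regions. It lies under 100 CPM and was chosen for description after its values were seen. miR-381, miR-410 and miR-329 had means over the 6 libraries of 97.1, 54.4 and 35.9 CPM.

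By the mean over the 6 libraries the highest member was miR-369-5p, with 2522, 1214 and 236 CPM in FCx and 1986, 1700 and 216 CPM in HP. It was the highest with index 3 only. In both regions miR-541 was above it with index 7 and miR-411 with index 11. The sister arm of miR-369-5p, miR-369-3p, known to bind AU-rich elements and to raise translation in resting cells, had 112, 432 and 1507 CPM in FCx and 159, 471 and 2004 CPM in HP. The arms of this one hairpin thus had opposite orders over the indexes, and the order of each was the same in FCx and HP. miR-411 had 1162, 493 and 2156 CPM in FCx and 1235, 329 and 1604 CPM in HP, lowest with index 7. miR-382 had 894, 1366 and 576 CPM in FCx and 1259, 1576 and 673 CPM in HP, highest with index 7.

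miR-487b had 851, 585 and 193 CPM in FCx and 1062, 2107 and 168 CPM in HP. The gap between regions was wide with index 7 and small with the other indexes. miR-543 had 871, 603 and 264 CPM in FCx and 526, 802 and 140 CPM in HP. miR-323-3p had 294, 287 and 398 CPM in FCx and 230, 597 and 355 CPM in HP. The index with the highest level differed between FCx and HP for these 3 members, and for no other of the 18.

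miR-380-3p had 330, 20.5 and 696 CPM in FCx and 275, 13.5 and 559 CPM in HP, with the same steep order as miR-496. miR-300 had 299, 172 and 235 CPM in FCx and 274, 166 and 147 CPM in HP. miR-409-5p had 337, 127 and 107 CPM in FCx and 238, 164 and 74.0 CPM in HP. miR-154 had 238, 105 and 233 CPM in FCx and 145, 95.4 and 111 CPM in HP. For miR-380-3p, miR-300 and miR-154 the FCx value by CPM was the higher with every index. The direction depended on the scale. In the edgeR fit without a block described below, scaled by TMM, the log2 difference (FCx over HP) was -0.37 for miR-380-3p, -0.17 for miR-300 and 0.22 for miR-154.

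**Figure D2:**
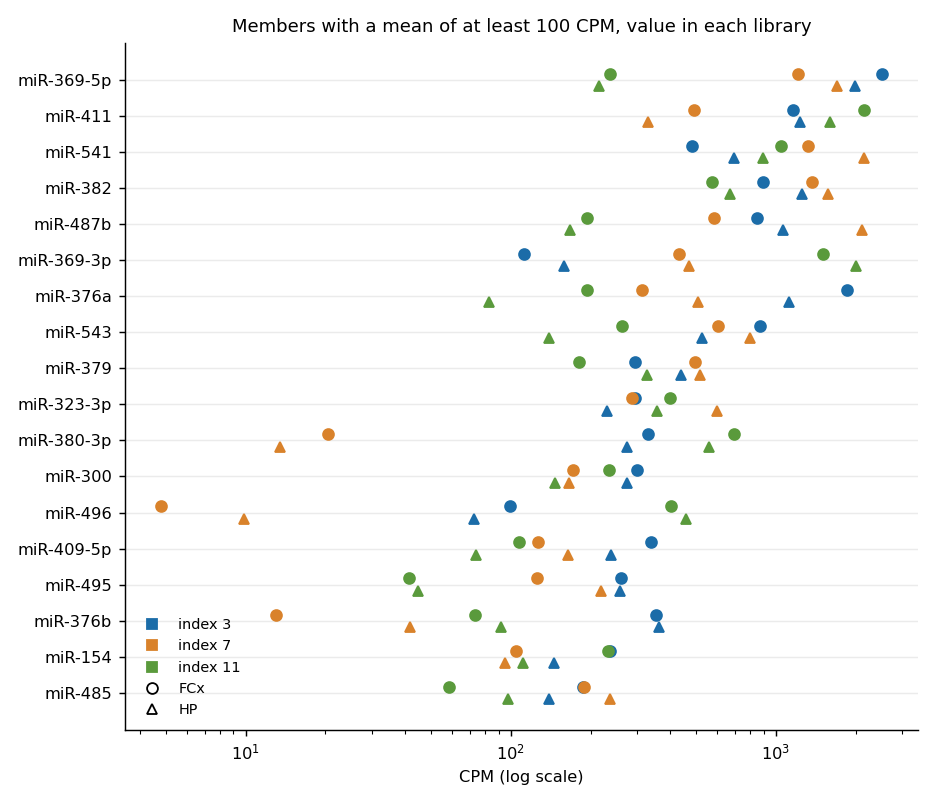
Level of the 18 members with a mean of at least 100 CPM in each of the 6 libraries (CPM, log scale), with colours for the index and circles and triangles for FCx and HP. Points of one colour mostly lie near each other, while the colours are spread, most widely for miR-496 (4.79 to 460 CPM) and miR-380-3p (13.5 to 696 CPM).

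At the other end, miR-679 was the lowest detected member, with 1 count in HP with index 7 and none in the other libraries. miR-544 and miR-654-3p also had 1 count each, and these 3 were not tested. miR-412 had no count in FCx and 5 counts in HP (0, 2 and 3 with indexes 3, 7 and 11), which is 0.381 CPM on average and under the level that a count of 0 allows in FCx, so no difference was detectable at this depth. All other members are covered by these ranges: the 13 between 10 and 100 CPM from miR-666-3p (mean of 11.6 CPM) to miR-381, and the low ones miR-377, miR-494, miR-539, miR-1193 and miR-758 from 1.06 to 8.25 CPM.

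To determine whether members were expressed at different levels in FCx and HP, the quasi-likelihood test of edgeR was used after TMM normalization. It was fitted to the 431 miRNAs whose counts summed to 2 or more in either region, 37 of them members. With the libraries taken as independent, no member was called between the regions. The count was 0 of 37 at an adjusted p of 0.05, where 0.464% of all miRNAs were called, and also 0 at an unadjusted p of 0.05, where 3.94% were. DESeq2's Wald test called 0 members too, and 2.78% of all miRNAs. The FCx and HP libraries overlapped for all 37 members, against 9.05% of all miRNAs tested whose regions did not overlap.

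Libraries of FCx and HP with the same index deviated together from the means of their regions, and a fit with the index as a block compares FCx and HP within an index. In this fit 4 members were called, and all 4 had the higher level in HP. The background was 17.9% of all miRNAs called, and 12.8% called as higher in HP, so that 4 of 37 is no larger a share than over all miRNAs. At an unadjusted p of 0.05, the blocked fit passed 12 members and 27.6% of all miRNAs. With library totals in place of TMM, 0 members and 13.0% of all miRNAs were called in the blocked fit. DESeq2's Wald test with the block, in which scale and test both change, called 0 members and 9.51%. Over all miRNAs the split of blocked calls was 22 higher in FCx and 55 higher in HP with TMM, and 36 and 20 with library totals.

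Of the 4, miR-487b had a blocked log2 difference (FCx over HP) of -1.09 ± 0.29 (SE) with an adjusted p of 0.00281 in edgeR. Every SE given is the size of the difference divided by the square root of edgeR's F. Its variance is partly shared over miRNAs, so it does not measure the spread of a member's own ratios. Ratios within an index, here and for the other called members, are of CPM. They are not scaled by TMM, unlike this difference, and share the scale of library totals. Within an index, the ratio of HP over FCx was 1.25 with index 3 (95% counting interval 1.12 to 1.40), 3.60 with index 7 (3.36 to 3.87) and 0.867 with index 11 (0.716 to 1.06). It was therefore higher in HP with 2 of 3 indexes, and the blocked difference was -1.07 without the index 3 libraries (adjusted p of 0.132) and -0.46 without those of index 7 (adjusted p of 0.276). With library totals it was -0.66 with an adjusted p of 0.178.

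miR-376b had a blocked log2 difference of -1.06 ± 0.29 with an adjusted p of 0.00316 in edgeR. Its ratio of HP over FCx by CPM was 1.03 (0.862 to 1.24), 3.21 (2.01 to 5.45) and 1.25 (0.927 to 1.73) with indexes 3, 7 and 11. The level was higher in HP with 3 of 3 indexes, beyond counting error with index 7. The difference was -0.55 without the index 7 libraries (adjusted p of 0.257), -0.78 without index 11 (0.122) and -0.61 with library totals (0.248).

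For miR-377 the difference was -1.99 ± 0.63 with an adjusted p of 0.0124 in edgeR, from 1, 0 and 8 counts in FCx and 14, 12 and 113 counts in HP. These are 2.55, 0 and 12.3 CPM against 4.37, 2.42 and 27.9 CPM, higher in HP with 3 of 3 indexes. The difference was -1.58 without index 7 (adjusted p of 0.113), -2.20 without index 11 (0.555) and -1.44 with library totals (0.130).

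miR-379 had a blocked difference of -0.90 ± 0.29 with an adjusted p of 0.0149 in edgeR. The ratio of HP over FCx by CPM was 1.497 (1.24 to 1.83), 1.04 (0.955 to 1.13) and 1.80 (1.49 to 2.19), and the level was thus higher in HP with 3 of 3 indexes. The difference was -0.67 without index 3 (adjusted p of 0.435), -0.30 without index 11 (0.819), -0.85 with a filter of 10 counts (0.0628) and -0.49 with library totals (0.414). Each of the 4 calls was lost when either of 2 indexes was left out, although all 8 of these differences stayed below 0 and those of miR-487b without index 3 and miR-377 without index 11 were about as large as with all libraries.

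As a list, the members had a median log2 difference of -0.58 (from -3.27 to 0.54) in the fit without a block, and all miRNAs tested had -0.37. With the block the medians were -0.55 and -0.38, and with the block and library totals -0.18 and -0.01. The median of all miRNAs itself lies below 0 under TMM. Without a block, 31 of 37 members were below 0, beside 293 of all 431 miRNAs, and 24 of 37 were below the median of all. For the 19 other Dlk1-Dio3 names, which were all tested, the medians were -0.20 without a block and -0.14 with it, and no name was called in either fit.

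Within an index, differences between the regions pointed in different ways. Among the 18 members of at least 100 CPM, 7 were higher in HP with index 3, 14 with index 7 and 7 with index 11. Their median log2 ratio of CPM was 0.19, -0.39 and 0.19, beside 0.23, -0.20 and 0.17 for all 139 miRNAs of at least 100 CPM. The SD of the log2 ratio among the 18 members was 0.45, 0.67 and 0.58, and 1.07, 1.20 and 1.07 among the 139. Of the 37 tested members, 6 were higher in HP with every index, against 18.6% of all miRNAs. Another 4 were higher in FCx with every index, for which no share over all miRNAs was computed. Both counts are by CPM, and of the latter members miR-380-3p and miR-300 had differences below 0 in the fits scaled by TMM.

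**Figure D3:**
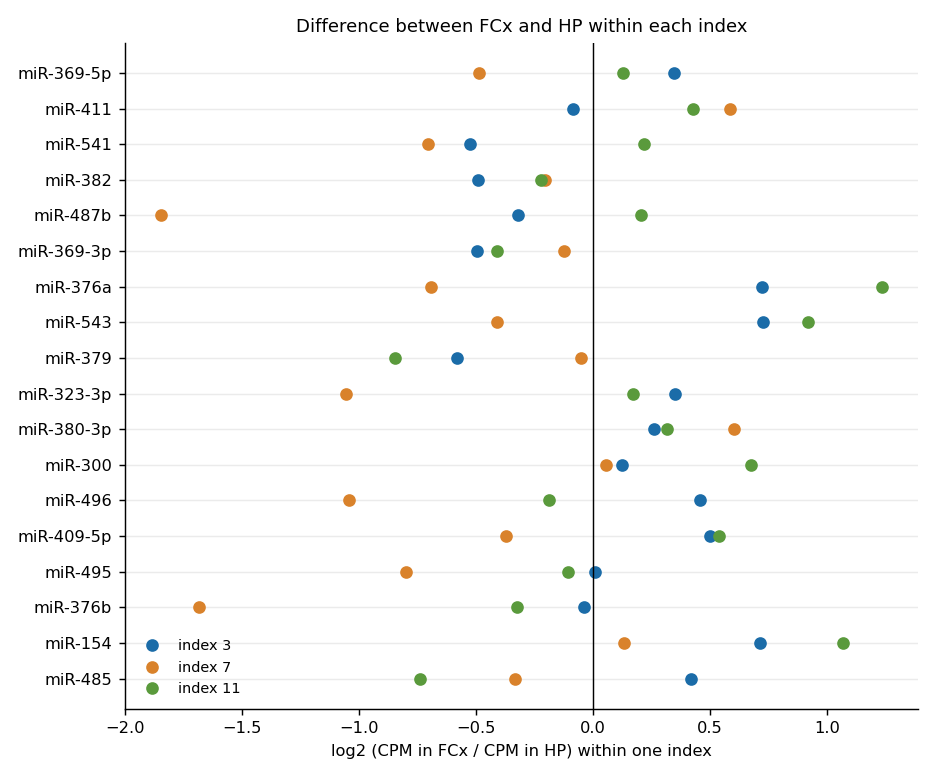
Log2 ratio of CPM in FCx over CPM in HP within each index for the 18 members with a mean of at least 100 CPM; each point is 1 pair of libraries. Most points lie between -1 and 1, and the lowest are those of miR-487b (-1.85) and miR-376b (-1.68) with index 7.

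More members were called between indexes than between regions. With edgeR, in a model that also held the region, 30 of 37 members were called, against 61.3% of all miRNAs tested. The 7 members not called were miR-154, miR-494, miR-539, miR-758, miR-300, miR-412 and miR-1193, of which miR-154 had an adjusted p of 0.0631. Among the 18 members of at least 100 CPM, 9 had a range between indexes of at least 4-fold in both regions, where 43.2% of all miRNAs of that level did. The index with the highest level was the same in FCx and HP for 15 of the 18, against 74.8%. Index 3 was highest in both regions for 7 members, index 7 for 4 and index 11 for 4.

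Among the 18 members of at least 100 CPM, the 5 with the largest range, taken as the smaller of the ranges in FCx and HP, were miR-496, miR-380-3p, miR-369-3p, miR-376a and miR-369-5p. miR-496 ranged 84.2-fold in FCx and 46.5-fold in HP, with an adjusted p of 1.12e-41 in edgeR. Its lowest levels, with index 7, rest on 7 counts in FCx and 49 in HP, so the size of these ranges is uncertain. For miR-380-3p the range was 33.9-fold and 41.3-fold (adjusted p of 3.01e-32). The arms of Mir369 ranged 13.4-fold and 12.6-fold for 3p (adjusted p of 4.54e-24) and 10.7-fold and 9.19-fold for 5p (adjusted p of 3.18e-12). miR-376a ranged 9.50-fold and 13.6-fold (adjusted p of 7.08e-14). The median range among the 18 members was 3.80-fold in FCx and 5.29-fold in HP, and among all miRNAs of that level 4.32-fold and 3.85-fold.

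Sequences that begin alike were compared, because the tag of the index is joined to the first base of the miRNA. The 3 arms of the second set above, which begin with UAUGUA, were all highest with index 11 and lowest with index 7 in both regions. Of these, miR-379-3p and miR-411-3p differ by 2 of 22 bases. Because 2 mismatches were allowed, their reads may be exchanged, and they are not separate examples. By genome reads, miR-379-3p had 48.5, 6.16 and 120 CPM in FCx and 40.2, 7.47 and 136 CPM in HP. miR-411-3p had 123, 15.1 and 285 CPM in FCx and 80.2, 13.7 and 262 CPM in HP. miR-380-3p had 327, 20.5 and 691 CPM in FCx and 274, 13.3 and 555 CPM in HP. Another 2 groups of arms shared their first 6 bases and did not share an order: miR-329-5p and miR-377-5p (AGAGGU), and miR-154-3p and miR-382-3p from its commonest start (AAUCAU), where miR-154-3p was highest with index 7 in both regions and miR-382-3p with index 3. The 3 groups hold 7 arms, were looked for after the index values were known and are given as a description.

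The arm that dominated a hairpin could also change with the index. For Mir369 the 5p arm held 96.0%, 74.8% and 14.4% of the reads at both arms in FCx with indexes 3, 7 and 11, and 92.8%, 79.0% and 10.1% in HP. Index 11 therefore showed miR-369-3p as the main arm and the other indexes miR-369-5p, in both regions. For Mir376b the 5p arm had 2.29%, 67.7% and 11.5% of FCx reads and 3.57%, 64.0% and 5.51% of HP reads, so that its main arm was 5p with index 7 and 3p otherwise. miR-376b-5p differs from miR-376c-5p by 1 of 22 bases, and because 2 mismatches were allowed their reads may be exchanged. Mir380 gave 0.775%, 36.2% and 3.63% in FCx and 3.41%, 48.4% and 4.42% in HP. Mir409 gave 82.2%, 40.5% and 37.4% in FCx and 64.2%, 45.9% and 32.0% in HP, with 5p as the main arm with index 3. For Mir411 the 5p arm held between 85.2% and 96.5% in all 6 libraries.

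For Mir382 the regions lay far apart with index 7 and near each other with the other indexes. Its 5p arm had 51.2%, 98.7% and 69.3% of FCx reads and 53.8%, 69.2% and 67.2% of HP reads. Its 3p arm, miR-382*, had 848, 17.1 and 257 CPM in FCx and 1080, 700 and 330 CPM in HP. In the blocked fit miR-382* had a log2 difference of -2.16 ± 0.33 with an adjusted p of 2.52e-09 in edgeR, and -1.63 with an adjusted p of 0.000142 with library totals. Without the index 7 libraries it was -0.74 with an adjusted p of 0.0767. The log2 ratio of CPM within an index was -0.35, -5.35 and -0.36. The SE and adjusted p of edgeR draw on a variance partly shared over miRNAs and do not measure the spread of these ratios. DESeq2's blocked Wald test gave a difference of -1.93 with an adjusted p of 0.403.

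Of the 9 star names, which all passed the filter, 2 were called in the blocked fit, both higher in HP, beside the 12.8% of all miRNAs called as higher in HP. The other one was miR-376b*, with 7.66, 15.1 and 7.66 CPM in FCx and 13.1, 70.0 and 5.43 CPM in HP. Its blocked difference was -1.54 ± 0.43 with an adjusted p of 0.00425 in edgeR, -1.34 with library totals (0.0273) and -0.50 without index 7 (0.791). It was higher in HP with 2 of 3 indexes, and DESeq2's blocked Wald test gave -1.12 with an adjusted p of 0.367. The 9 names had a median of -0.55 in this fit, and 5 of the 9 were called between indexes, where 61.3% of all miRNAs were.

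**Figure D4:**
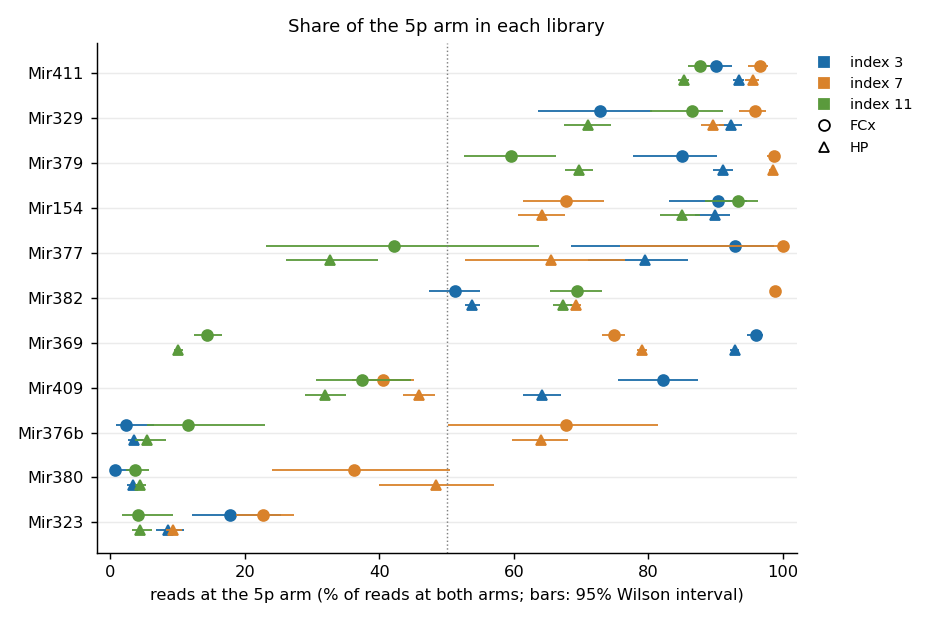
Share of the 5p arm among genome reads at both arms of the 11 hairpins with at least 100 reads at each arm, in each library (%), with 95% Wilson intervals. Colours are indexes, and circles and triangles are FCx and HP; for Mir369 index 11 lies at 10.1% to 14.4% and the other indexes at 74.8% to 96.0%.

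The start of a miRNA sets its seed, and 36 arms of the cluster had at least 100 genome reads with which to compare their 5′ ends. In 29 of them the commonest 5′ end was the RefSeq one, and in 22 of the 29 at least 90% of the reads started there. The other 7 started most often at another base when the reads of all libraries were added up, so that deep libraries weigh most. miR-382-3p started 2 nt upstream in 97.4% of its reads and miR-377-3p 3 nt upstream in 97.2%. miR-411-5p started 1 nt upstream in 81.1%, miR-323-3p 1 nt upstream in 55.6%, miR-496a-3p 2 nt downstream in 77.0%, miR-409-3p 1 nt downstream in 64.1% and miR-485-3p 3 nt downstream in 47.5%. The seeds that follow are shown in the third set above. In single libraries the annotated end could be the commoner one. This held in both regions for miR-496a-3p and miR-323-3p with index 3 and for miR-409-3p with index 11.

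These shares also differed between indexes for several arms. miR-496a-3p started at its annotated end in 74.4%, 28.6% and 18.1% of its reads in FCx and in 78.0%, 50% and 14.7% in HP, although the index 7 values rest on 7 and 52 reads. For miR-409-3p the annotated end was used in 46.4%, 12.8% and 50.5% of FCx reads and in 41.0%, 12.8% and 50.9% of HP reads. For miR-411-5p these shares were 31.8%, 36.2% and 10.05% in FCx, and 26.5%, 31.3% and 10.1% in HP. miR-323-3p varied less, with 51.9%, 36.8% and 47.4% in FCx and 52.0%, 36.1% and 56.3% in HP. For miR-485-3p the regions did not share an order: its commonest end held 38.7%, 63.0% and 43.9% of FCx reads and 43.4%, 42.8% and 69.4% of HP reads, with a gap of 25.6 points between regions with index 11, the largest among the 7 arms. By contrast, miR-541-5p, miR-379-5p and miR-369-5p started at their annotated base in at least 98.1% of the reads of every library.

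**Figure D5:**
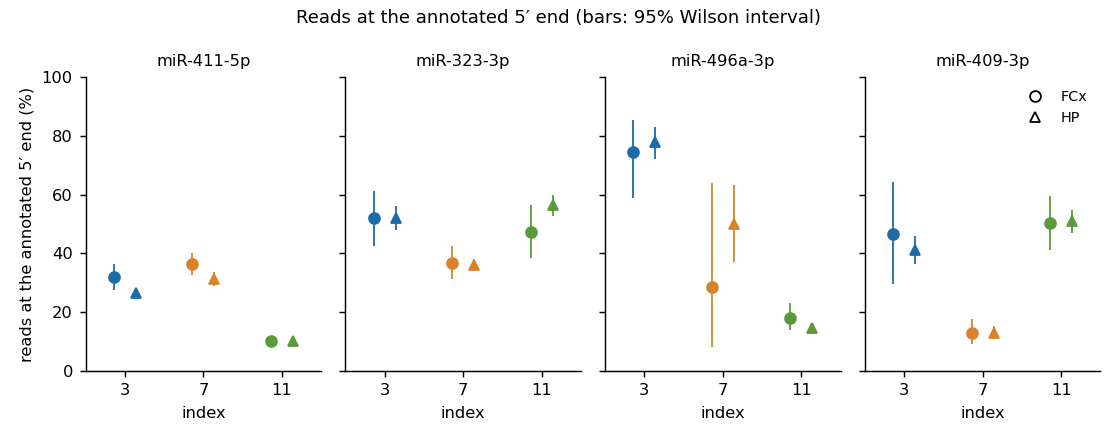
Share of genome reads that start at the annotated 5′ end (%) for miR-411-5p, miR-323-3p, miR-496a-3p and miR-409-3p, by index, with 95% Wilson intervals; circles are FCx and triangles HP. FCx and HP lie close together for miR-409-3p with index 7, both at 12.8%, and apart for miR-496a-3p with index 7, at 28.6% and 50%.

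Whether a level was read from the miRNA counts or from the genome alignments mattered for a few of the matched members. Of the 27 matched names with at least 100 counts, 23 had genome reads between 80% and 120% of their counts, with a median of 97.4%. Names were matched by the closeness of their reads and counts, so these values do not test how well the sources agree. Names without a match, among them miR-487b and miR-485, are left out. Genome reads of miR-409-3p were 179% of its counts, and 378% and 351% with index 7 in FCx and HP. By counts it had 66.4, 46.5 and 149 CPM in FCx and 97.6, 51.2 and 131 CPM in HP, lowest with index 7. By genome reads it had 71.5, 176 and 167 CPM in FCx and 129, 180 and 150 CPM in HP, highest with index 7, so the order of the indexes turned with the file used. For miR-323-3p, miR-376a and miR-381 the genome reads were 65.5%, 68.9% and 71.7% of the counts.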

How the data were processed

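miRNA-Seq was done on 12 lanes, an individual and a pooled lane for each of 6 libraries. Small RNA of 15 to 35 nt was ligated to adaptors, and reads were divided by index and trimmed. The authors aligned reads with Bowtie (version not given in the sources used here) to mature miRNAs of miRBase, with 2 mismatches allowed, and deposited raw counts per miRNA. A miRNA without a read is not listed and was taken as 0. They also deposited genome alignments (NCBIM37), whose score column held the same value throughout and was not used. Most of these alignments span 22 nt (92.3%), so that only 5′ ends were read.

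Lanes were summed per library. Levels are counts per 1000000 miRNA counts (CPM). Depth ranged from 391410 to 4956117 counts. edgeR 4.0.16 (quasi-likelihood test, TMM, Benjamini-Hochberg adjustment over 431 miRNAs, threshold 0.05) in R 4.3.3 compared FCx with HP and the indexes with each other; DESeq2 1.42.0 was an alternative, besides library totals, other filters, each library left out and the index as a block. The index pairs the libraries: deviations of same-index FCx and HP libraries correlated over 431 miRNAs (r of 0.772, 0.854 and 0.836). For different indexes r ran from -0.597 to -0.245. The deviations of a miRNA cancel within a region, which pushes these values down, so they are no separate support. Arms and 5′ ends were taken from alignments starting within 4 nt of a RefSeq 5′ end, and names without an arm were placed by their reads, which matched 32 of the 40 member names. Tables were made in Python 3.11.15 (scipy 1.17.1, numpy 2.4.6, pandas 2.3.3) and figures with matplotlib 3.10.9. The fits were also run on simulated counts with a region change, an index change or neither, but never both together. That run is no check on region calls in data that differ between indexes as these do. Members with a mean of at least 100 CPM were named with the value in every library, as were members called between regions, the 5 of at least 100 CPM with the largest range between indexes, the highest and lowest member and those at 0 in one region with at least 3 counts in the other; the remaining members were given by ranges. Members and lists were chosen with earlier results of these data known.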

Additional observations from a re-analysis of the deposited data

Results flagged for a closer look

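Genome alignments also started at arms of the cluster to which no name of the count files could be matched. They take no part in the comparisons of counts under their own name, although they enter the arm shares, the 5′ ends and the arms with a shared start. Such reads were most numerous at miR-329-5p, with 3065 over the 6 libraries. This arm had 192, 254 and 207 CPM in FCx (indexes 3, 7 and 11) and 274, 231 and 113 CPM in HP, and was above its sister arm miR-329-3p, with 71.5, 10.9 and 32.2 CPM in FCx and 22.8, 26.8 and 46.1 CPM in HP, in every library. miR-412-5p had 1120 reads, with 79.2, 131 and 1.53 CPM in FCx and 63.9, 134 and 6.91 CPM in HP, while the name miR-412 had 5 counts in all. miR-379-3p had 824 reads. Together miR-379-3p and miR-411-3p had 2467 reads, against 2437 counts of the name miR-411*, and these arms differ by 2 of 22 bases. miR-377-5p had 219 reads, miR-543-5p 60, miR-410-5p 59, miR-495-5p 44, miR-541-3p 43, miR-381-5p 40, miR-1193-5p 17, miR-667-5p 12, miR-487b-5p 9, miR-496a-5p 8 and miR-134-3p 4. There is no control library for these values, which are sums over the 6 libraries. In single libraries some are at or under the 3 reads that a count of 0 allows: miR-134-3p had at most 1 read in any library, and miR-412-5p had 1 read in FCx with index 11.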

How the results depend on the processing

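The number of members called between FCx and HP was 0 with 17 other settings. It was 4 with the index (replicate) block, 3 with the block and a filter of 10 counts, and 0 to 2 when a library or an index was left out, the 2 being reached in the blocked fit without each index in turn. Without index 3 the calls were miR-376b and miR-377, without index 7 miR-379 and miR-369-3p, and without index 11 miR-487b and miR-323-5p, the last of these higher in FCx. Over all miRNAs the calls went from 2 to 77 with the block. Members called between indexes were 24 to 31 under all alternatives and 24 to 28 with a library left out. The members' median log2 difference was -0.58, -0.10 with library totals and between -0.39 and -0.15 with a library left out, where -0.16 was reached without FCx replicate 2 (index 7) and -0.15 without HP replicate 3 (index 11). Without a block, the difference of miR-376b turned to 0.01 without FCx replicate 2 and to 0.41 without HP replicate 1, and that of miR-377 to 0.67 without HP replicate 3. With libraries left out, the differences ran from -2.06 to 0.41 for miR-376b, from -4.58 to 0.67 for miR-377, from -1.11 to -0.28 for miR-379 and from -1.50 to -0.34 for miR-487b. The cause of these changes was not tested. The members' share lay between 0.873% and 1.06% in FCx and between 0.980% and 1.17% in HP with a library left out. The mean 5p share of Mir369 with index 7 was 76.9%, 80.2% in pooled lanes and 74.7% in individual lanes, an alternative chosen after seeing the data. FCx depth limits members under 10 CPM, and 1 RNA pool per region leaves the spread between mice unmeasured.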
